A study of Mus musculus with 6 samples.

Results

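Integrins are surface receptors made of 1 alpha and 1 beta subunit that hold leukocytes to vessel walls and to matrix, and chemokine receptors steer the cells that carry them. On T cells, the pair of the α4 and β7 subunits binds MAdCAM-1 on the vessels of the gut wall and of the mesenteric lymph node, αE with β7 binds E-cadherin on gut epithelium, and CCR9 and GPR15 guide cells to the small and the large intestine. Retinoic acid made by gut dendritic cells is known to raise α4β7 and CCR9 when T cells are activated there, whereas naive T cells carry the α4 and β7 subunits before any such contact.

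The 9 genes of this gut-homing set were taken by symbol from the deposited gene tables: the integrin alpha subunit genes Itga4, Itga6, Itgae and Itgav, the beta subunit genes Itgb7, Itgb1 and Itgb3, and the chemoattractant receptor genes Ccr9 and Gpr15. All 9 were found among the 55487 gene identifiers of each table, and 7 of them were among the 12486 genes that passed the filter on low counts, Itgae and Gpr15 being the ones that did not. The libraries hold polyadenylated RNA of freshly isolated naive CD4+ T cells from the mesenteric lymph node (mLN, 3 libraries), which drains the gut, and from the spleen (3 libraries). All came from untreated wild-type mice of the strain C57BL6/J, whose age is not given in the labels, and the labels do not say how naive cells were sorted. They also do not say whether replicates came from separate or pooled animals, so the p-values below reflect only how far libraries of one tissue spread, and that spread may be technical.

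The expected counts summed to between 13205499 and 20054205 per library. Each level below is given in TPM (transcript level scaled to the library total and corrected for transcript length), and each difference between the tissues comes from the counts, as CPM (counts scaled to library size, with TMM factors) and as a log2 fold change, mLN minus spleen. The libraries held the transcripts of CD4 T cells, with Cd4 at 503, 514 and 541 TPM in mLN and 464, 439 and 409 TPM in spleen, and with Cd8a between 1.03 and 2.93 TPM in mLN and between 0.59 and 1.00 TPM in spleen. Transcripts of myeloid cells were higher in the spleen libraries. The summed level of 11 neutrophil markers lay between 1.29 and 4.78 TPM in mLN and between 112 and 138 TPM in spleen, and that of 15 monocyte and macrophage markers between 6.76 and 8.35 TPM in mLN and between 37.4 and 44.1 TPM in spleen. Fold changes also moved with transcript length. The median log2 fold change was -0.36 over the 1421 tested genes with transcripts up to 1000 nt, 0.04 over the 5134 genes between 2000 and 4000 nt, and 0.26 over the 607 genes above 6000 nt.

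Sequences upstream of the genes for α4, β7 and β1 are shown because α4 can pair with either beta subunit and the results below compare the balance of these transcripts. They are the 250 bases before the RefSeq transcription start (GRCm38.p6, which has mm10 coordinates), of Itgb7 at chr15:102231936-102232185 on the minus strand, of Itga4 at chr2:79255176-79255425 on the plus strand and of Itgb1 at chr8:128685404-128685653 on the plus strand. RefSeq promoter entries were matched for 6 of the 9 genes. Capitals mark matches on either strand to 4 short motifs, AGGTCA (retinoid receptor half-site), TGNGGT (RUNX), CAGAC (SMAD half-site) and CACCC (KLF), which may overlap each other.
Itgb7: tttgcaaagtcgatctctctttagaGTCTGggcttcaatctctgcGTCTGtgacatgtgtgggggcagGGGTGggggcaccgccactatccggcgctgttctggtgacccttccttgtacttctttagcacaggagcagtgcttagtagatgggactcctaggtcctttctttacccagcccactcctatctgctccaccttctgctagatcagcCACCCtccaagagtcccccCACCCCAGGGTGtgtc
Itga4: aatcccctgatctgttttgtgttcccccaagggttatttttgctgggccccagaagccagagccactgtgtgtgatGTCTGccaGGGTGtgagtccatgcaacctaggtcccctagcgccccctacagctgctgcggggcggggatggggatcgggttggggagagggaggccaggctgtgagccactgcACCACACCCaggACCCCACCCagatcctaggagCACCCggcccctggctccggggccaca
Itgb1: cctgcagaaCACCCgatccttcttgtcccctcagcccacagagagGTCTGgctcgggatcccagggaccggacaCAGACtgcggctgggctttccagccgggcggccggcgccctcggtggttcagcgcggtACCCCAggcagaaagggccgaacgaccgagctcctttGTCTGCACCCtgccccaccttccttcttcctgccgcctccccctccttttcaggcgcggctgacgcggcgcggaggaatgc

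The Itgb7 window held CACCC 4 times, CAGAC 2 times and TGNGGT 1 time. The Itga4 window held them 4 times, 1 time and 2 times, and the Itgb1 window 2 times, 3 times and 1 time. AGGTCA was found in none of the 6 windows. Over all 32817 promoter windows of that length, 52.0% held CACCC, 42.2% CAGAC, 40.1% TGNGGT and 14.0% AGGTCA, so each of these matches is common. The windows differed in base composition, with 56.0% G and C for Itgb7, 64.0% for Itga4 and 68.0% for Itgb1.

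The 9 genes spanned levels from 609 TPM on average (Itgb7 in mLN) to 0, in the same order in both tissues: Itgb7, Itga6, Itga4, Itgb3, Itgb1, Itgav, Ccr9, Itgae and Gpr15. In mLN no neighbours in this order overlapped between libraries. In spleen only Itgae and Gpr15 did. Itgb7 ranked 190th of the 12486 tested genes by mean TPM in mLN and 249th in spleen, whereas Ccr9 ranked 9699th and 9349th.

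**Figure D1:**
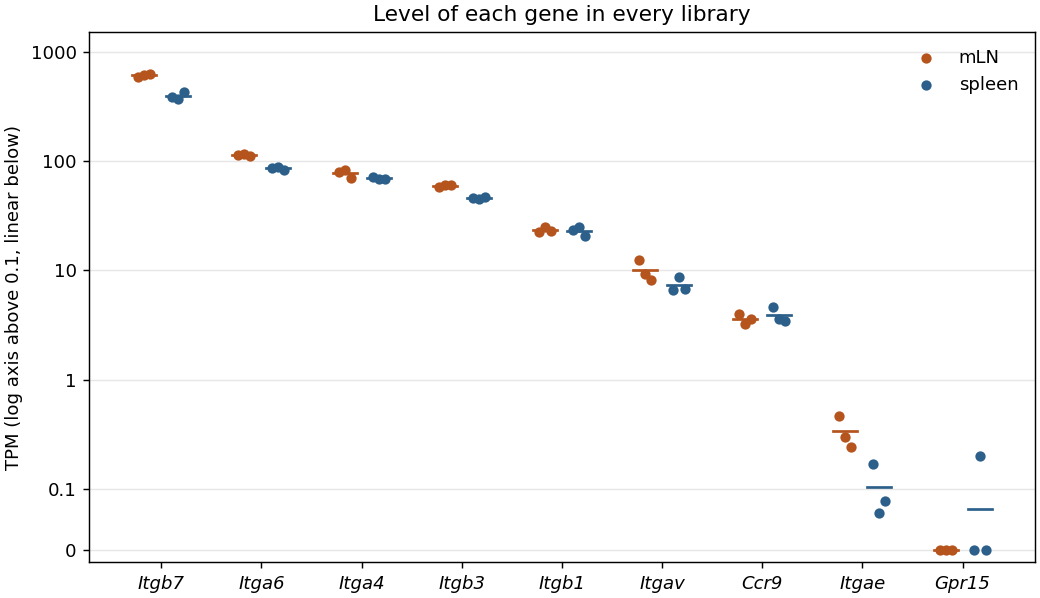
Level of each of the 9 genes in TPM (log axis above 0.1, linear below), one point per library, mLN left of spleen, with a line at the mean of 3 libraries. Itgb7 stands highest in all 6 libraries, between 588 and 627 TPM in mLN and between 369 and 427 TPM in spleen, and Gpr15 is at 0 in 5 of 6.

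The β7 subunit gene was the one member that passed the test between the tissues. Itgb7 (ENSMUSG00000001281; mm10 chromosome 15, minus strand, positions 102215995 to 102231944) encodes the beta chain shared by the α4β7 and αEβ7 integrins. Its level was 588, 611 and 627 TPM in the mLN libraries and 385, 369 and 427 TPM in the spleen libraries, so that every mLN library was above every spleen library. In CPM it reached 858, 878 and 945 in mLN and 615, 665 and 714 in spleen. The fold change of 1.34 (log2 0.43, standard error 0.0615) passed edgeR's quasi-likelihood test with an adjusted p of 1.93e-05 over all genes tested. It was the only one of the 7 tested members that did, in a comparison where 29.6% of all tested genes were called, 16.1% as higher and 13.5% as lower in mLN. The call held under all 19 alternative settings, with log2 fold changes from 0.37 to 0.63 and adjusted p-values up to 0.00892. Transcripts of Itgb7 had a mean length between 2178 and 2405 nt, and with the trend on transcript length removed its log2 fold change was 0.40.

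The gene of its main partner did not pass the test. Itga4 (ENSMUSG00000027009; chromosome 2, plus strand, positions 79255426 to 79333123) encodes the α4 chain, which forms α4β7 for MAdCAM-1 and α4β1 for VCAM-1. In CPM it was at 503, 500 and 435 in mLN and at 524, 517 and 501 in spleen, and the groups overlapped, since mLN replicate 1 lay above spleen replicate 3. The log2 fold change was -0.10 (standard error 0.0618, edgeR adjusted p = 0.239). Its TPM of 79.8, 82.3 and 70.3 in mLN and 70.5, 69.0 and 67.6 in spleen overlapped as well. Itga4 has the longest transcripts of the set, between 8949 and 9314 nt on average. With the trend on transcript length removed, it was lower in mLN, with a log2 fold change of -0.41 and an adjusted p of 1.32e-05 (edgeR), in a fit that called 23.7% of genes, 11.6% as higher and 12.1% as lower. On log2(TPM + 1) the sign turned, with a value of 0.16 (limma adjusted p = 0.221).

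The β1 subunit gene Itgb1 (ENSMUSG00000025809; chromosome 8, plus strand, positions 128685654 to 128733200) pairs with α4, α6 and αv among the members. It was present at 22.6, 25.1 and 22.8 TPM in mLN and 23.2, 25.0 and 20.6 TPM in spleen, which is far below Itgb7. In CPM it was at 55.8, 59.9 and 54.4 in mLN and at 68.7, 71.2 and 59.9 in spleen, with mLN replicate 2 and spleen replicate 3 almost level. The log2 fold change of -0.23 (standard error 0.0908) missed the threshold, with an edgeR adjusted p of 0.0578. Leaving out spleen replicate 3 made it -0.32 with an adjusted p of 0.0140. It also passed as lower in mLN with upper-quartile factors (-0.28, adjusted p = 0.0232, in a fit that called 29.9% of genes, 13.6% as higher and 16.4% as lower) and with the length trend removed (-0.34, adjusted p = 0.00817), whereas it was 0.036 on log2(TPM + 1).

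Itga6 (ENSMUSG00000027111; chromosome 2, plus strand, positions 71745616 to 71858416), the α6 chain of laminin receptors, was the second most abundant member. Its level was 114, 115 and 110 TPM in mLN and 85.6, 88.5 and 82.3 TPM in spleen. In CPM it was at 259, 250 and 246 in mLN and at 229, 232 and 223 in spleen, without overlap. The log2 fold change of 0.14 (standard error 0.0606) missed the threshold (edgeR adjusted p = 0.0780). On log2(TPM + 1) it was 0.40 and passed (limma adjusted p = 0.00600), but on that scale the median of all tested genes was itself shifted by 0.21, and 25.2% of genes were called, 22.1% as higher and 3.08% as lower. With each library centred on its median it was 0.15 (adjusted p = 0.196), where 14% of genes were called, 6.39% as higher and 7.58% as lower.

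Itgb3 and Itgav encode the chains of the vitronectin receptor αvβ3, and αv also pairs with β1. Itgb3 (ENSMUSG00000020689; chromosome 11, plus strand, positions 104608000 to 104670476) was at 57.3, 60.7 and 60.2 TPM in mLN and 45.9, 44.6 and 46.6 TPM in spleen. Its CPM of 220, 234 and 235 in mLN stayed just above 211, 207 and 216 in spleen. The log2 fold change was 0.12 (standard error 0.0622, edgeR adjusted p = 0.159), and it turned to -0.11 with the length trend removed (adjusted p = 0.193). On log2(TPM + 1) it was 0.37 (limma adjusted p = 0.0137) and with centred libraries 0.12 (adjusted p = 0.343). Platelets and megakaryocytes carry this subunit too. Their markers Pf4, Treml1, Gp1bb and Gp6 had no count in any library, and 11 such markers other than Itgb3 summed to between 2.67 and 4.61 TPM in mLN and between 2.95 and 3.79 TPM in spleen. Their part in the Itgb3 level was not tested.

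Itgav (ENSMUSG00000027087; chromosome 2, plus strand, positions 83724397 to 83806916) was at 12.5, 9.26 and 8.13 TPM in mLN and at 6.63, 8.74 and 6.73 TPM in spleen. The groups overlapped both in TPM and in CPM. The log2 fold change of 0.20 (standard error 0.121) did not pass (edgeR adjusted p = 0.226) and was -0.014 with the length trend removed. The mean transcript length assigned to Itgav ranged from 4269 to 6341 nt between mLN libraries and from 4791 to 5668 nt between spleen libraries. This was the widest relative spread of that length among the members, and mLN replicate 1, with the shortest length, had the highest TPM.

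**Figure D2:**
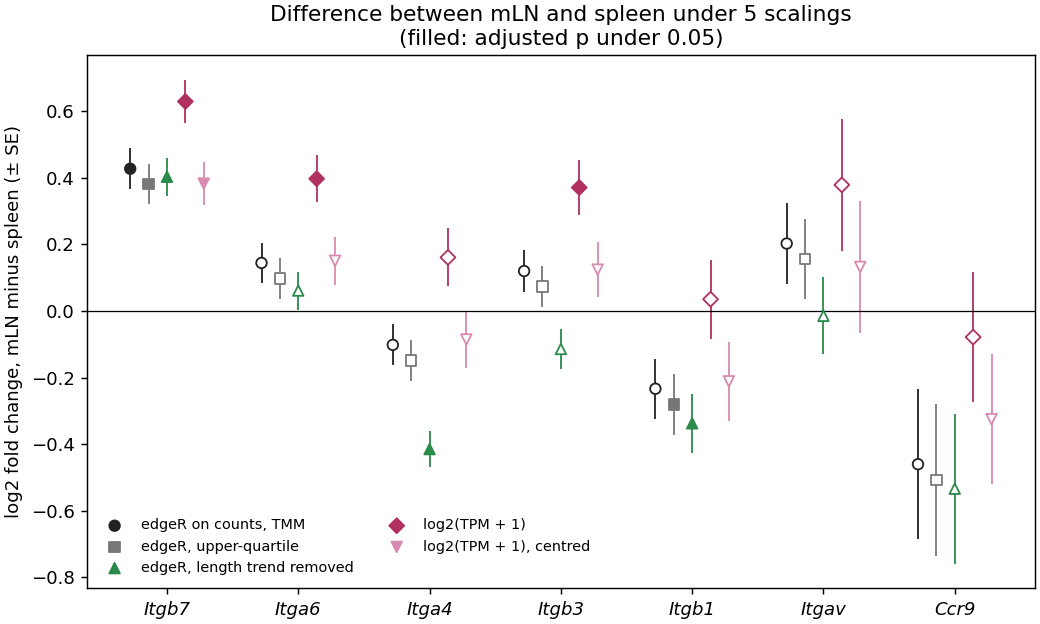
Log2 fold change, mLN minus spleen, of the 7 tested genes under 5 ways of scaling (symbols), with standard errors, filled where the adjusted p was under 0.05. Itgb7 is filled and above 0 under all 5, from 0.38 to 0.63, whereas Itga4 runs from -0.41 to 0.16 and Itgb3 from -0.11 to 0.37.

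Itgae (ENSMUSG00000005947; chromosome 11, plus strand, positions 73090583 to 73147446) encodes αE, also known as CD103. It was counted 19, 10 and 12 times in the mLN libraries and 7, 3 and 4 times in the spleen libraries. This corresponds to 1.17, 0.750 and 0.594 CPM in mLN and 0.494, 0.170 and 0.249 CPM in spleen. The mLN values were all above the spleen values, but the counts were near the floor of 3 counts per library (between 0.149 and 0.225 CPM, for counting error only). Without the filter, edgeR gave a log2 fold change of 1.44 (standard error 1.03, adjusted p = 0.380), in a fit that called 18.5% of genes, 9.86% as higher and 8.61% as lower. Haspin, a gene on the opposite strand inside the span of Itgae, was counted between 72 and 148 times per library. The strand setting of the counting is not given, and only whole gene spans were compared, not exons. Whether reads of one gene were counted for the other was not tested. Regulatory T cells are a known source of αE, and their defining factor gene Foxp3 was at 0.48, 0.67 and 0.42 TPM in mLN and 0.43, 0.62 and 0.95 TPM in spleen, while 12 markers of that type without Itgae summed to between 182 and 211 TPM in mLN and between 171 and 203 TPM in spleen. Their part in the Itgae counts was not tested.

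Both chemoattractant receptor genes were low. Ccr9 (ENSMUSG00000029530; chromosome 9, plus strand, positions 123678439 to 123784330), the receptor for the small-intestine chemokine CCL25, was at 4.02, 3.21 and 3.61 TPM in mLN and at 4.65, 3.59 and 3.42 TPM in spleen. In CPM it was at 8.28, 6.22 and 8.02 in mLN and at 13.5, 8.96 and 8.71 in spleen, so that each mLN library was below each spleen library, narrowly except for spleen replicate 1. The log2 fold change of -0.46 (standard error 0.226) did not pass (edgeR adjusted p = 0.137). Without spleen replicate 1 it was -0.24 (adjusted p = 0.547). Plasmacytoid dendritic cells carry CCR9 as well, and their marker Siglech was at 0, 0 and 0.04 TPM in mLN and at 1.64, 1.17 and 0.40 TPM in spleen. Summed over 7 markers of that type, the level was between 94.1 and 110 TPM in mLN and between 83.2 and 102 TPM in spleen, of which Siglech made up little. In bulk RNA, fewer cells of a type and less RNA per cell cannot be told apart, and the part of these cells in the Ccr9 level was not tested. Ccr9 overlaps Lztfl1 on the opposite strand, which was counted between 178 and 261 times per library against 83 to 191 times for Ccr9.

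Gpr15 (ENSMUSG00000047293; chromosome 16, minus strand, positions 58717433 to 58719070), a receptor for homing to the large intestine, had 0 counts in all mLN libraries and in spleen replicates 1 and 3, and 4 counts in spleen replicate 2. A count of 0 allows up to 0.225 CPM in the shallowest mLN library and up to 0.212 CPM in the shallowest spleen library. Gpr15 transcripts were therefore not detectable in mLN at this depth, and no fold change is given.

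Of the 7 tested members, 3 had CPM values higher in every mLN than in every spleen library (Itgb7, Itga6 and Itgb3) and 2 had lower ones (Itgb1 and Ccr9), while 41.8% of all tested genes did not overlap, 21.5% as higher and 20.3% as lower. In TPM, Itgb7, Itga6 and Itgb3 did not overlap and were higher, while 41.3% of all tested genes did not overlap, 35.1% as higher and 6.22% as lower. The median log2 fold change of the 7 was 0.12, against -0.01 over all tested genes. With the length trend removed it was -0.11, against -0.03 over all tested genes, and over the 19 alternatives it ran from -0.11 to 0.38.

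Ratios within a library do not depend on how the library is scaled, though they carry the correction for transcript length. The ratio of Itgb7 to Itgb1 transcripts, in TPM, was 26.1, 24.4 and 27.5 in mLN and 16.6, 14.8 and 20.7 in spleen. The mean ratio was thus 26.0 ± 1.56 in mLN and 17.3 ± 3.02 in spleen (SD, n = 3 each), without overlap, and the fold from the mean log2 ratios was 1.51. The ratio of Itga4 to Itgb7 moved the other way, with 0.136, 0.135 and 0.112 in mLN and 0.183, 0.187 and 0.158 in spleen, a fold of 0.723. Itgb7 transcripts thus outnumbered those of its partner α4 in all 6 libraries, by more in mLN than in spleen. Itga4 against Itgb1 was 3.54, 3.28 and 3.08 in mLN and 3.04, 2.76 and 3.28 in spleen, and the groups overlapped (fold 1.09, exact permutation p = 0.20). Itga6 against Itgb1 was 5.04, 4.58 and 4.81 in mLN and 3.69, 3.54 and 3.99 in spleen, without overlap. The ratio of Itgav to Itgb1 did not overlap either, with 0.553, 0.369 and 0.356 in mLN and 0.286, 0.349 and 0.326 in spleen. Of 7 ratios compared, 5 gave the smallest p that 3 against 3 libraries allow in a two-sided exact permutation test, 0.10, which is 0.14 after Benjamini-Hochberg adjustment over the 7, so this design cannot take any of them past 0.05. A pair of the ratios rests on the few Itgae counts. Itga4 over Itgae had a fold of 0.324 without overlap, and Itgae over Itgb7 a fold of 2.24 with overlap (exact permutation p = 0.20).

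**Figure D3:**
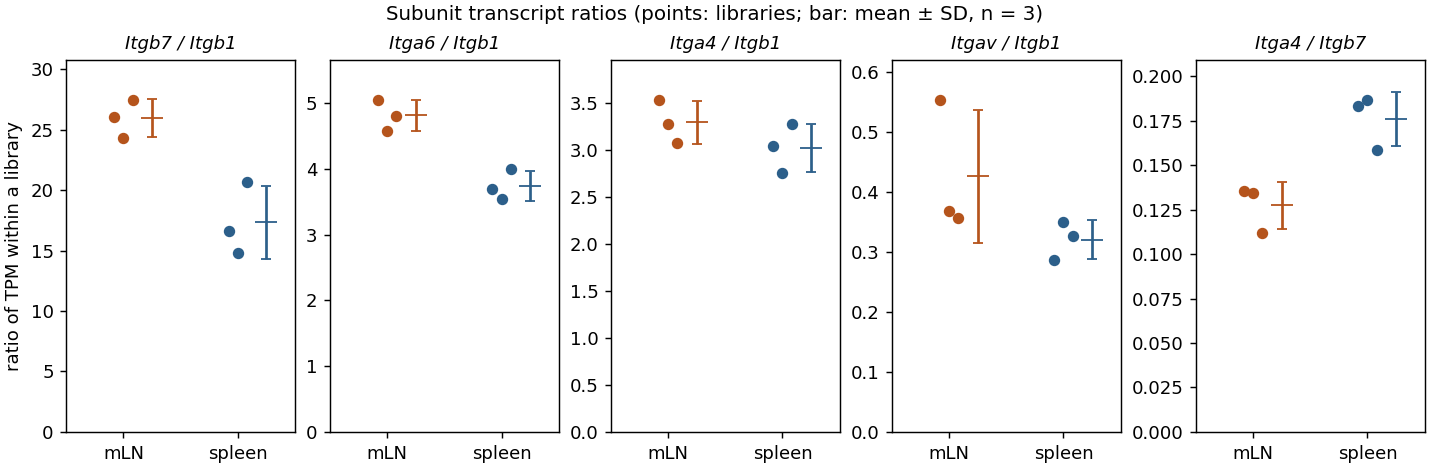
Ratio of the TPM of 2 subunit genes within each library (points), with the mean and SD of 3 libraries beside them, mLN left and spleen right, each axis starting at 0. Itgb7 over Itgb1 lies between 24.4 and 27.5 in mLN and between 14.8 and 20.7 in spleen, while Itga4 over Itgb7 is lower in mLN, between 0.112 and 0.136 against 0.158 to 0.187 in spleen.

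Set among all integrin subunit genes, a comparison chosen after values were seen, Itgb7 was the most abundant beta subunit gene. It took 57.9 ± 0.403% of the summed TPM of 9 beta subunit genes in mLN and 55.2 ± 2.05% in spleen (SD, n = 3 each). Itgb2, the β2 chain of LFA-1, took 34.3 ± 0.507% in mLN and 35.2 ± 1.59% in spleen, and Itgb1 2.23 ± 0.136% in mLN and 3.23 ± 0.424% in spleen. Of the summed TPM of 18 alpha subunit genes, Itgal, the αL chain of LFA-1, took 48.1 ± 2.03% in mLN and 44.2 ± 1.26% in spleen. Itga6 took 26.6 ± 0.382% in mLN and 26.0 ± 0.957% in spleen. Itga4 took 18.3 ± 1.31% in mLN and 21.0 ± 0.267% in spleen, without overlap (exact permutation p = 0.10, the smallest possible). The summed beta transcripts came to 1052 ± 27.2 TPM in mLN and 713 ± 29.8 TPM in spleen, and the summed alpha transcripts to 424 ± 4.19 TPM in mLN and 329 ± 3.35 TPM in spleen.

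**Figure D4:**
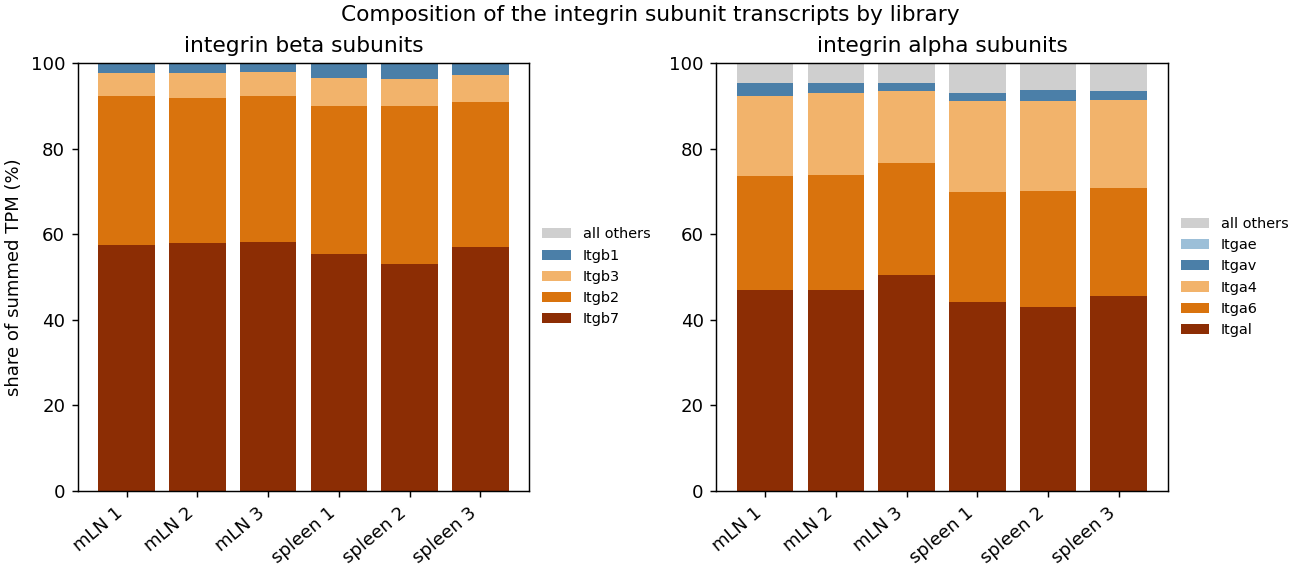
Share of the summed TPM of all beta (left) and all alpha (right) integrin subunit genes taken by each gene, as stacked bars from 0 to 100%, one bar per library. Itgb7 takes between 57.4% and 58.1% of the beta transcripts in mLN and between 53.0% and 57.1% in spleen, and Itga4 between 16.8% and 19.3% of the alpha transcripts in mLN and between 20.7% and 21.2% in spleen.

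The LFA-1 subunit genes were the other abundant integrin genes, and both rose in mLN. Itgb2 was 1.22-fold higher (log2 0.29, standard error 0.0561, edgeR adjusted p = 4.96e-04) and Itgal 1.20-fold higher (log2 0.26, standard error 0.0563, adjusted p = 0.00111), the Itgal call being lost with the length trend removed (adjusted p = 0.467). Itgax, a subunit of dendritic and myeloid cells, fell to a mean of 0.0900 TPM in mLN, against 1.11 TPM in spleen, beside the higher myeloid markers in spleen. It passed the count filter through spleen alone and so could only be lower in mLN. Of the other 14 alpha subunit genes 10 were tested, 1 rose (Itgal) and 1 fell (Itgax), where 16.1% of all tested genes rose and 13.5% fell. Itgb2 was the 1 gene tested of 6 other beta subunit genes. Among the other 23 chemokine receptor genes 8 were tested. Ccr7, which brings naive cells into lymph nodes, fell to 0.797-fold (adjusted p = 1.53e-04; adjusted p = 0.471 on log2 TPM), and Cxcr4, the CXCL12 receptor, to 0.658-fold (adjusted p = 9.24e-04; adjusted p = 0.277 on log2 TPM and 0.0649 with centred libraries). Cxcr2, Ccr1 and Ccr2, receptors of neutrophils and monocytes, passed the count filter through the spleen libraries alone and so could only be lower in mLN, with mean levels of 0.0133, 0.010 and 0.157 TPM in mLN and of 1.11, 0.797 and 0.870 TPM in spleen.

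In a list of genes that act on integrin tails or on the switch of integrins to their binding state, activators and restrainers together, 29 of 34 genes were tested. Of these 14 rose and 4 fell in mLN, where 16.1% of all tested genes rose and 13.5% fell, and the median log2 fold change was 0.22, against -0.01 over all tested genes. Tln1, which encodes talin, the protein that binds beta subunit tails, was at 220 ± 8.73 TPM in mLN and 117 ± 6.53 TPM in spleen (SD, n = 3 each) and rose 1.57-fold in the counts (adjusted p = 6.18e-08). Fermt3, which encodes its partner kindlin-3, rose 1.33-fold. Among activators of the GTPase Rap1, Rasgrp2 rose 1.29-fold, Rapgef1 1.37-fold and Rapgef2 1.61-fold. The kinase gene Ptk2b rose 1.38-fold, and Flna, whose filamin competes with talin for integrin tails, 1.29-fold. The call of Rapgef1 was lost on centred log2 TPM (adjusted p = 0.0704). In the other direction Cytip, which restrains adhesion, fell to 0.834-fold (adjusted p = 0.00151; adjusted p = 0.616 on log2 TPM). The genes that went down were not restrainers only. Rap1a, a gene for the GTPase Rap1 itself, was called lower in 15 of the 19 alternatives, with log2 fold changes from -0.35 to -0.019. The adaptor gene Skap1 was called lower in 17 of the 19, with log2 fold changes from -0.35 to -0.024. After removal of the length trend, 12 genes of the list were higher and 5 lower (11.6% and 12.1% of all tested genes), and on centred log2 TPM 9 were higher and 2 lower (6.39% and 7.58% of all tested genes). These shares of all tested genes hold for the lists that follow as well.

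Retinoic acid and TGF-beta are known to set several of these genes in activated T cells. In the retinoic acid list 11 of 22 genes were tested, 7 rose and 0 fell, where 16.1% of all tested genes rose and 13.5% fell, with a median log2 fold change of 0.36. Rara, the receptor gene, was at 43.1, 44.5 and 57.2 TPM in mLN and 22.6, 22.4 and 29.1 TPM in spleen, without overlap. The coactivator gene Ncoa3 rose 1.60-fold and the corepressor gene Ncor1 1.32-fold, which are known to have opposing functions. Ncoa2 and Ncoa1 rose 1.26-fold and 1.28-fold but lost their calls with the length trend removed, and Rarg rose 1.28-fold (adjusted p = 0.0189; adjusted p = 0.129 without mLN replicate 3 and 0.0977 without spleen replicate 2). After removal of the length trend 4 genes rose, and on centred log2 TPM 3 did. The list of TGF-beta signalling genes and Runx partners holds both activators and inhibitors of a pathway known to raise Itgae and Gpr15. All 14 genes of this list were tested, 9 rose and 0 fell, beside the same 16.1% and 13.5% of all tested genes, with a median log2 fold change of 0.39. Smad7, an inhibitor of the pathway that TGF-beta induces, was at 93.6, 78.5 and 107 TPM in mLN and 48.1, 44.9 and 59.2 TPM in spleen and rose 2.02-fold in the counts (log2 standard error 0.115, adjusted p = 2.63e-05). Among corepressors that hold SMAD proteins in check, Ski rose 1.81-fold and Skil 1.78-fold. The receptor gene Tgfbr2 rose 1.53-fold and Runx3, which encodes a factor that binds beside SMAD proteins, 1.56-fold. The co-receptor gene Tgfbr3 rose 1.37-fold, a call lost on centred log2 TPM (adjusted p = 0.0800). On centred log2 TPM 6 genes of the list rose, and after removal of the length trend 7 rose and 1 fell.

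Genes of lymph node entry and egress, a list that also holds Itgal, Itgb2 and Ccr7, went both ways. Of 15 tested of 16 listed, 4 rose and 5 fell, with a median of -0.01. P2ry10, a lysophospholipid receptor gene, fell to 0.542-fold, and Gpr183, an oxysterol receptor gene, to 0.665-fold (adjusted p = 3.18e-05; adjusted p = 0.0730 on log2 TPM). Foxo1, which encodes a factor that keeps Ccr7 on, rose 1.36-fold, a call lost with the length trend removed (adjusted p = 0.0747). Of the 9 genes for ligands of the members 5 were tested. Icam1 rose 1.38-fold (adjusted p = 0.00647; adjusted p = 0.0521 without spleen replicate 2 and 0.0705 on centred log2 TPM). Cdh1 had a mean of 0.603 TPM in mLN and 0.0967 TPM in spleen. Its call as higher was lost without mLN replicate 1, without mLN replicate 2, without spleen replicate 1 and on centred log2 TPM. Cdh1 passed the count filter through mLN alone and so could only be higher in mLN. Vcam1 and Fn1 passed it through spleen alone and so could only be lower in mLN. Vcam1 fell to 0.187 TPM in mLN, against 1.28 TPM in spleen, and Fn1 to 0.14 TPM in mLN, against 1.19 TPM in spleen. Ccl25 did not pass (adjusted p = 0.280).

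**Figure D5:**
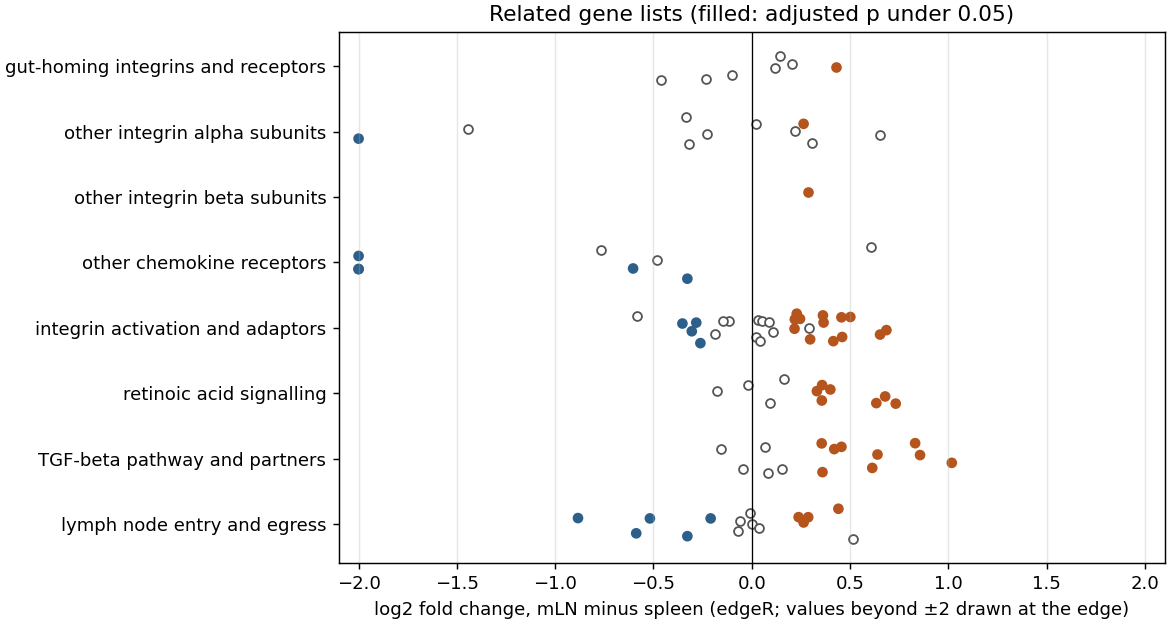
Log2 fold change, mLN minus spleen (edgeR), of the tested genes of each list, one point per gene, filled where the adjusted p was under 0.05 and orange where higher, blue where lower in mLN; values beyond the axis are drawn at its edge. In the top row Itgb7 alone is filled, while the retinoic acid and TGF-beta lists hold 7 and 9 filled points, all above 0.

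The genes whose levels followed each member most closely over the 6 libraries were found by Pearson's r of log2 CPM among 7949 named genes (7950 for Ccr9) with a mean of at least 10 CPM. The 6 values fall into 2 tissues and share their libraries, so r is a description. For Itgb7 these were Anks1 and Dot1l (r = 0.999 for both), which had log2 fold changes of 0.68 and 0.50. For Itga4 they were Cog6 and Phf20l1 (0.995 and 0.994), for Itgb1 Surf1 and Commd6 (0.991 and 0.989), for Itga6 Cul3 and Lrch3 (0.997 and 0.995), for Itgb3 Zyx and Zfp169 (0.999 and 0.997), for Itgav Zbtb18 and Ccdc82 (0.998 and 0.995), and for Ccr9 Cep162 and Tmem156 (0.971 and 0.967). No gene appeared for more than 1 member.

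B cells also carry α4 and β7. The 11 B cell markers summed to between 378 and 400 TPM in mLN and between 461 and 494 TPM in spleen, of which Ighm made up most. Of the 11 markers 7 fell in mLN and 0 rose, where 13.5% of all tested genes fell and 16.1% rose. Over the 19 alternatives between 4 and 7 of the markers fell. The part of these and of the myeloid transcripts in the levels of Itgb7, and in those of Itga4, Itgb1 and Ccr9, whose fold changes from counts were also below 0 without passing the test, was not tested.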

How the data were processed

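RNA of 3 mLN and 3 spleen libraries was prepared with a directional kit (NEBNext Ultra II, per the labels' protocols). The submitters' processing notes name STAR, RSEM and mm10; no version, annotation release or strand setting was found in the labels. The authors deposited RSEM expected counts per gene, TPM and FPKM, which RSEM corrects for length, and mean transcript lengths in nt, per the file headers. Of 55487 identifiers, 55141 had a symbol. Coordinates are from GENCODE vM21 (GRCm38).

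Expected counts were rounded, filtered (filterByExpr), scaled (TMM) and tested with edgeR's quasi-likelihood test, two-sided, with tissue as the only term and Benjamini-Hochberg adjustment over 12486 genes at 0.05. Each standard error is the log2 fold change divided by the root of the F statistic. The 19 alternatives changed the scaling (RLE, upper-quartile), the tool (DESeq2, limma-voom), the measure (log2(TPM + 1), that with centred libraries, log2(TPM + 0.1)), the filter (none, stricter), the length trend (removed by loess, span 0.3), a replicate block (with and without that removal), the threshold (0.01) or the libraries (each left out). Ratios within a library were compared by exact permutation, with CPM and FPKM as alternatives to TPM. Chi-square per degree of freedom between replicates was between 5.59 and 11.8, above counting noise. Scripts were tested on simulated data. Intervals and floors cover counting error only.

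The members and lists were chosen with earlier results of these data known. Genes named are the members, up to 6 genes of each list with the smallest p or among the 2 with the highest level, defining markers, and the 2 genes most like each member. Cytip, Skap1 and Rap1a were named outside that rule, after their values were seen. A few genes that the rule names are not reported here. Software was Python 3.11.15 with scipy 1.17.1, and R 4.3.3 with DESeq2 1.42.0, limma 3.58.1 and edgeR 4.0.16.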

Additional observations from a re-analysis of the deposited data

How the results depend on the processing

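Itgb7 was called higher in mLN under all 19 alternatives. The count of members called higher was 3 on log2(TPM + 1), 3 on log2(TPM + 0.1) and 3 with the replicate block, against 1 in the reported fit. The count called lower was 1 with upper-quartile factors, 2 with the length trend removed, 2 with the replicate block and 3 with the replicate block and the length trend removed, against 0. With each library left out in turn, 1 member was higher and between 0 and 1 lower. The sign turned for Itga4 on log2(TPM + 1) and log2(TPM + 0.1) (0.16 on both), for Itgb1 on the same (0.036 and 0.037), and with the length trend removed for Itgav (-0.014, and -0.012 with the replicate block) and Itgb3 (-0.11, and -0.11 with the replicate block). Over all genes, 2010 were higher and 1689 lower, against 2757 and 384 on log2(TPM + 1), 798 and 947 on the same with centred libraries, 2765 and 389 on log2(TPM + 0.1), and 1069 lower at a threshold of 0.01. The replicate block also raised the calls over all genes, to 2566 higher and 2139 lower. With the block and the length trend removed, 2000 genes were higher and 2091 lower. Calls were 54.3% higher in the reported fit and 87.8% on log2(TPM + 1), 45.7% with centred libraries. Over the alternatives, the activation list had 9 to 17 genes higher and 0 to 6 lower, the retinoic acid list 3 to 7 and 0, the TGF-beta list 6 to 10 and 0 to 2, the entry and egress list 2 to 7 and 2 to 6, the ligand list 0 to 2 and 1 to 2, and the other chemokine receptors 0 and 4 to 6. The 7 ratios kept their direction with CPM in place of TPM and without any 1 library. FPKM in place of TPM and paired differences give the same mean log2 difference by construction, apart from rounding. Neither is therefore a check. Same-numbered libraries correlated in their deviations from the tissue mean by 0.022, 0.0023 and 0.065, and differently numbered ones by between -0.046 and 0.024. Deviations from a mean of 3 libraries sum to 0, which holds the average of these values near 0 but not each of them. Same-numbered libraries thus shared little of their deviations. Whether the numbers pair libraries is not settled by this. The labels state no pairing, and the reported fit leaves the numbers out. With the replicate block Itgb3 was called higher (0.12, edgeR adjusted p = 0.0308), and with the block and the length trend removed it was called lower (adjusted p = 0.0385). The counts of Itgae and Gpr15 are too few for a difference between tissues to be measured at this depth.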
